A study of Mus musculus with 300 samples.

Results

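The fatty acid binding proteins are small cytosolic carriers, and 5 of their genes, Fabp1, Fabp3, Fabp4, Fabp5 and Fabp7, were followed here out of 18193 genes measured. The genes were taken by name from the array annotation, each represented by its brightest probe set. Mice received WY14643, an agonist of PPAR-alpha, GW501516, an agonist of PPAR-delta, or rosiglitazone, an agonist of PPAR-gamma, orally at 10 mg/kg for 4, 8 or 15 days. On each day there were 5 mice for each compound and 10 for vehicle, and each of the 75 mice gave 4 arrays, from its liver, heart, kidney and skeletal muscle, 300 in all. Strain, sex, age, the identity of the vehicle, the muscle sampled and the hour of collection are not given in the sources used here. Values are log2 array intensities. A change is the log2 difference from vehicle mice of the same day, and where no day is given it is the mean of the 3 daily differences. Calls were made in limma where the p-value, adjusted over the 18193 genes, was under 0.05. The vehicle arrays serve all 3 compounds, so the 3 comparisons of a tissue share their controls.

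Fatty acids that enter a cell are held in solution by these proteins, which carry them to mitochondria, peroxisomes, lipid droplets and the nucleus, where fatty acids can bind the PPAR receptors. Each member has a tissue in which it is best known: Fabp1 in hepatocytes, Fabp3 in heart and skeletal muscle, Fabp4 in adipocytes, macrophages and capillary endothelium, Fabp5 in epidermis and many other cells, and Fabp7 in brain and glia. Fabp1 and Fabp4 are textbook PPAR target genes. In the mouse genome Fabp4 and Fabp5 lie on chromosome 3 with Pmp2, Fabp9 and Fabp12 between or beside them, while Fabp3, Fabp1 and Fabp7 lie on chromosomes 4, 6 and 10 (RefSeq, GRCm38.p6).

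Promoter sequence is shown for Fabp1 and Fabp7, because these members carried most of the changes outside the liver and their upstream sequence holds a match to a searched motif. The RefSeq table matched Fabp1, Fabp3 and Fabp7, that is 3 of the 5 members, and the 250 bases before each start were searched on both strands. One motif was the direct repeat that PPAR and RXR pairs are known to bind, 2 copies of AGGTCA with 1 base of any kind (N) between them. Up to 2 mismatches were allowed in it. The other was TAGGTCA, the core known to be bound by ROR and REV-ERB receptors of the circadian clock, with no mismatch. The sequences run 5′ to 3′ on the strand of the gene (plus for both), and capitals mark the matches:
Fabp1, chr6:71199629-71199878 (GRCm38.p6): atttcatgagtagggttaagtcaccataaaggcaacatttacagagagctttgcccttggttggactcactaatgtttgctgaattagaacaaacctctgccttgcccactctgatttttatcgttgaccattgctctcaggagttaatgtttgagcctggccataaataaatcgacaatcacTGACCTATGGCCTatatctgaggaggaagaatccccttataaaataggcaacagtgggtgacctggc
Fabp7, chr10:57784673-57784922 (GRCm38.p6): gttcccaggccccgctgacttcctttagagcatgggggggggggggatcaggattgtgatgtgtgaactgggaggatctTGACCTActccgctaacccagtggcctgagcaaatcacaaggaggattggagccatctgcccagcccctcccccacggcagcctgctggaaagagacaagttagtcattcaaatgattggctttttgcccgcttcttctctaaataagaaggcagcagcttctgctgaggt
In Fabp1 the direct repeat matched with 1 mismatch on the opposite strand, from base -67 to base -55, and the clock core matched within it, from -67 to -61. In Fabp7 only the clock core matched, on the opposite strand from -171 to -165. The 250 bases before Fabp3 held neither. Of 32851 promoters of this length, 0.484% held the direct repeat with at most 1 mismatch and 3.236% with at most 2, and 2.234% held the clock core. A match describes the letters in this window and is no measured binding.

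The arrays of each tissue appear to have been normalized apart from the other tissues, and their median log2 intensities differed (liver 6.12 to 6.26, heart 7.27 to 7.44, kidney 5.05 to 5.38, muscle 4.98 to 5.13). Tissues are therefore compared only by the percentile of a gene within its array. The labelled tissues carried their own markers in all 30 vehicle arrays: the mean of the hepatocyte markers was 13.95 to 14.13 in liver, that of cardiomyocyte markers 13.78 to 14.55 in heart, that of fast muscle markers 13.25 to 13.53 in muscle and that of kidney tubule markers 11.49 to 11.69 in kidney. Arrays of heart, muscle and kidney also carried hepatocyte and adipocyte transcripts to varying degrees. In vehicle arrays the hepatocyte marker Alb had a median percentile of 82.4 in heart. The adipocyte marker Adipoq was at percentile 72.28 or higher in every vehicle muscle (median 95.5). In vehicle kidneys its log2 intensity ran from 1.54 to 8.65. Marker values stand beside the results they move with. In heart and liver 3 arrays stood apart and are left out in alternative fits beside the results they touch: heart of GW501516 day 15 replicate 1, heart of rosiglitazone day 4 replicate 1 and liver of GW501516 day 8 replicate 1. They were chosen after the values were seen, the hearts for Adipoq and the liver for Fabp4 itself. In kidney, GW501516 day 8 replicate 1 also stood apart, with mean endothelial, kidney tubule and slow muscle markers of 6.45, 10.94 and 6.02 against 8.12 to 8.29, 11.56 to 11.66 and 4.81 to 5.14 in the other 4 kidneys of its group. RNA from bulk tissue was measured, so fewer cells of a type and less RNA per cell cannot be told apart. Each p-value rests on separate mice as replicates.

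Each member had its own order of tissues in vehicle arrays. Fabp1 was at a median percentile of 99.93 in liver, with every liver array between 99.88 and 99.97. Its median percentile was 75.3 in heart (10.6 to 96.8), 44.1 in kidney (20.45 to 77.02) and 34.8 in muscle (3.43 to 96.6), and these 3 tissues overlapped widely. Fabp3, the muscle type carrier that supplies fatty acids for oxidation, was at 99.97 in heart, 99.90 in muscle and 98.7 in kidney, against 33.5 in liver. Fabp4 was at 99.6 in muscle (98.4 to 99.9) and 99.4 in heart (99.2 to 99.5), which overlapped, then at 93.5 in kidney and 75.8 in liver. Fabp5 was at 97.9 in liver, 95.5 in heart and 93.9 in muscle, whose ranges overlapped, and at 82.9 in kidney. Fabp7, the brain type carrier, was at 65.1 in kidney (54.0 to 71.9) and 61.8 in liver (55.9 to 73.5). It was at 38.01 in heart (22.01 to 47.90) and 25.7 in muscle (15.5 to 37.5), the lowest member in both. In kidney its median lay above that of Fabp1, and in liver above that of Fabp3. Kidney and liver overlapped in Fabp7.

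Of the 60 comparisons of a member with vehicle (5 genes, 4 tissues and 3 compounds), 11 were called in limma, 6 up and 5 down. Over all genes in the same 12 comparisons, 5.59% were called. Fabp7 gave 5 of the 11 calls, Fabp4 gave 4 and Fabp1 gave 2, while Fabp3 and Fabp5 gave none in 12 comparisons each. At an unadjusted p under 0.05 the counts of 12 were 3 for Fabp1, 0 for Fabp3, 4 for Fabp4, 1 for Fabp5 and 7 for Fabp7, where 16.3% of all genes passed that threshold. For WY14643, GW501516 and rosiglitazone the share of all genes called was 11.2%, 13.9% and 16.2% in liver. It was 1.44%, 4.17% and 7.51% in heart. It was 1.74%, 6.79% and 1.52% in kidney, and 0.104%, 0.857% and 1.65% in muscle. Muscle held none of the 11 calls of members.

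**Figure D1:**
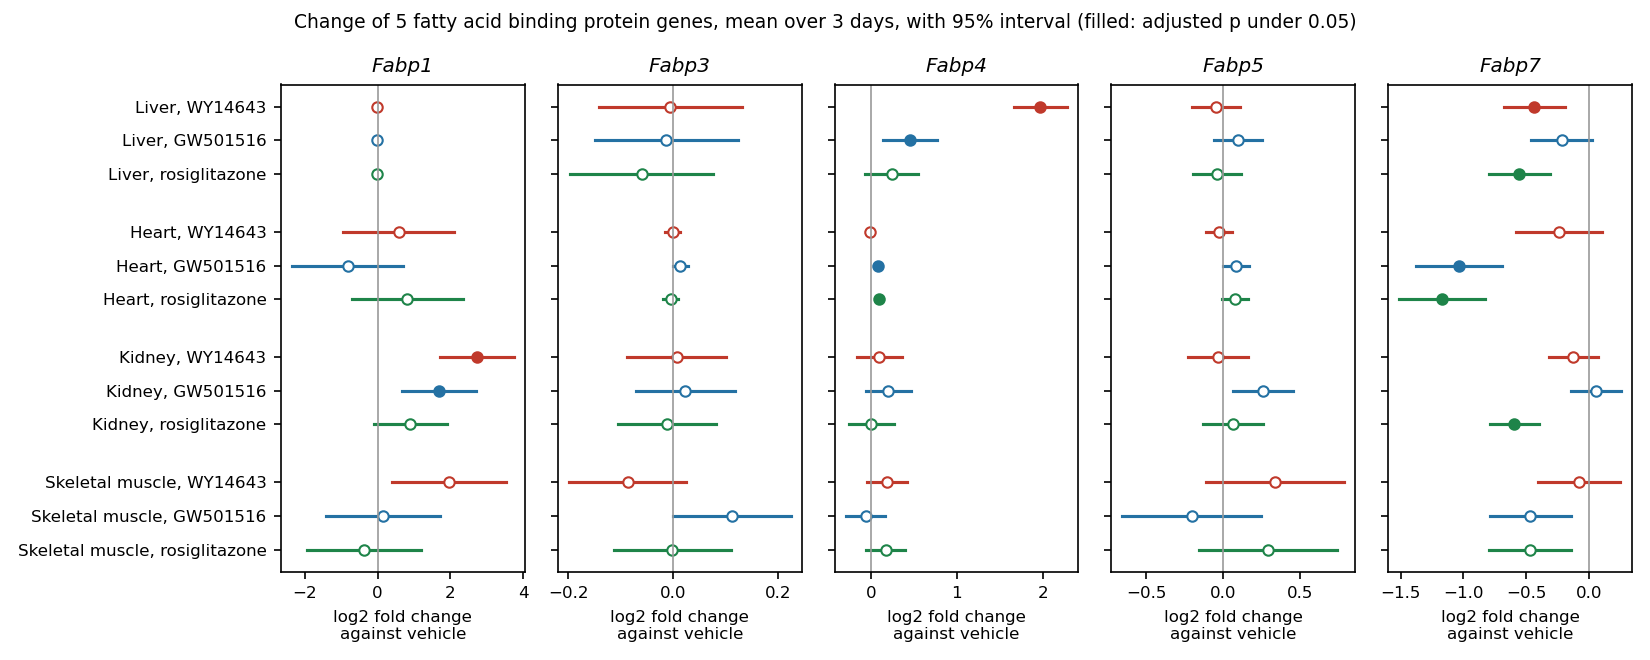
Log2 change from same-day vehicle, mean over the 3 days with its 95% interval, for the 5 members in each tissue with each compound (filled where called, 15 compound arrays against 30 vehicle arrays). Fabp4 in liver with WY14643 (1.97) and Fabp1 in kidney with WY14643 (2.73) are the largest called rises, and Fabp7 lies below 0 in heart with GW501516 and rosiglitazone.

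Fabp4, the adipocyte and macrophage carrier also known as aP2, rose in liver with WY14643. On day 4 the 5 mice had log2 intensities of 11.90, 12.71, 11.68, 10.61 and 11.28, against 9.40 to 10.30 (median 9.93) in the 10 vehicle mice. On day 8 they had 13.33, 11.96, 12.31, 11.21 and 10.96 against 9.56 to 10.36 (median 10.08), and on day 15 12.52, 12.15, 10.66, 12.56 and 13.04 against 9.76 to 10.13 (median 9.96). Every mouse given WY14643 lay above every vehicle mouse of its day, and the mice given the compound spread more widely than the controls. The rise was 1.97 ± 0.157 (SE; 95% interval 1.66 to 2.29; limma adjusted p = 2.0e-16), a 3.93-fold difference, higher in 15 of 15 mice. It was called on each day, at 1.76, 1.93 and 2.23 on days 4, 8 and 15 (adjusted p = 5.5e-06, 3.7e-07 and 1.1e-08), where 6.45%, 6.32% and 2.86% of all genes were called. In all, 13 of the 180 tests of a member on a single day were called, against 2.21% over all genes.

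With GW501516 the change of liver Fabp4 was smaller and rested in part on 1 mouse. The values were 9.99, 10.26, 10.07, 10.07 and 10.26 on day 4, 12.19, 10.32, 10.63, 9.99 and 10.06 on day 8, and 10.28, 10.41, 10.43, 10.55 and 10.59 on day 15. Only day 15 was clear of its vehicle mice. Fabp4 rose by 0.46 ± 0.157 (0.14 to 0.77; limma adjusted p = 0.038), in 14 of 15 mice, and without the day 8 mouse at 12.19 the change was 0.33 (adjusted p = 0.14). With rosiglitazone the change of 0.24 (-0.07 to 0.55; adjusted p = 0.34) did not pass, and 1 mouse on day 4 stood at 11.39. WY14643 exceeded GW501516 by 1.52 (1.16 to 1.88; adjusted p = 2.2e-08) and rosiglitazone by 1.73 (1.37 to 2.10; adjusted p = 2.0e-11) in limma. Of 60 such differences between compounds 8 were called over the 5 members, against 3.33% over all genes, and in liver these 2 pairs called 4.55% and 17.6% of all genes.

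**Figure D2:**
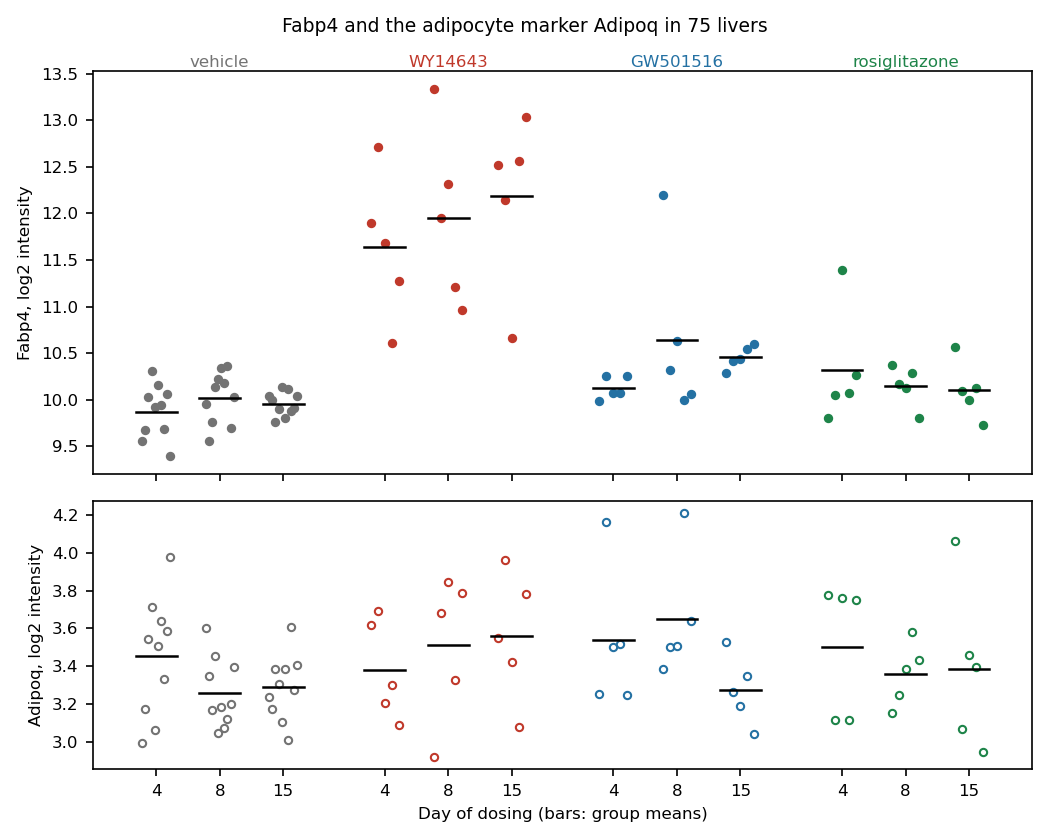
Log2 intensity of Fabp4 (upper panel) and of the adipocyte marker Adipoq (lower panel) in each of 75 livers by treatment and day (points are mice, bars are group means). The mice given WY14643 lie between 10.61 and 13.33 in Fabp4, no vehicle mouse is above 10.36, and Adipoq stays between 2.92 and 4.21 in every group.

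Adipocyte and macrophage markers in liver were measured beside Fabp4. Adipoq, the adiponectin gene that defines adipocytes, was at 2.92 to 4.21 in all 75 liver arrays, and the mean of the 5 adipocyte markers measured of 8 was 4.30 to 4.91 with vehicle, 4.59 to 5.19 with WY14643, 4.85 to 5.35 with GW501516 and 4.55 to 5.65 with rosiglitazone. Of those 5 markers Cidec, a lipid droplet protein, rose by 0.72, 0.66 and 1.16 with the 3 compounds in that order, and Trarg1, a partner of glucose transporter trafficking, rose by 0.62, 1.17 and 0.50. Lep, the leptin gene, fell by 0.19 with rosiglitazone. With the mean of the adipocyte markers as a covariate, the change of Fabp4 was 1.90 with WY14643 (limma adjusted p = 1.9e-12) and 0.36 with GW501516 (adjusted p = 0.33). That mean was itself higher with each compound than with vehicle, and it includes Cidec and Trarg1, which rose. The fit therefore does not separate adipocyte content from a response of these markers to the compound. The mean of the 8 macrophage markers was 9.58 to 10.61 with vehicle and 9.48 to 10.94 with WY14643, and of the 8 only Cd14, a receptor for endotoxin, was called, up by 0.77. Over the 30 vehicle livers Fabp4 and the adipocyte markers had r = -0.150 (rho = -0.188; two-sided permutation p = 0.38 and 0.30).

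Other probe sets of Fabp4 gave the same picture in liver where they were bright. The probe set 1451263_a_at stood for the gene, with a mean of 10.5 in liver, and 1417023_a_at, with a mean of 10.0, gave 2.12 with WY14643 (limma adjusted p = 1.1e-15) and 0.44 with GW501516 (adjusted p = 0.097). The dim probe sets 1424155_at (mean 4.97) and 1425809_at (mean 3.31) gave 0.21 (adjusted p = 0.13) and -0.036 (adjusted p = 0.85) with WY14643.

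In heart the change of Fabp4 was small on its brightest probe set and larger on the dimmer ones. With GW501516 that probe set read 14.10 to 14.16 on day 4, 14.03 to 14.15 on day 8 and 14.04 to 14.27 on day 15, and with rosiglitazone 13.98 to 14.40, 14.10 to 14.17 and 14.04 to 14.11. The vehicle mice read 13.997 to 14.13, 13.98 to 14.15 and 13.92 to 14.05 on those days, so the groups overlapped on every day for both compounds. Fabp4 rose by 0.077 ± 0.019 with GW501516 (0.04 to 0.12; limma adjusted p = 0.0080; 15 of 15 mice) and by 0.097 ± 0.019 with rosiglitazone (0.06 to 0.14; adjusted p = 0.00027; 14 of 15 mice). With WY14643 the value was -0.016 (adjusted p = 0.79). This probe set lay on average 0.93 below the highest value of any probe set on the heart arrays, and whether the array could register a larger rise was not tested. The dimmer probe sets gave 0.10 and 0.12 (1417023_a_at, mean 13.9), 0.36 and 0.46 (1424155_at, mean 11.2), and 0.58 and 0.64 (1425809_at, mean 10.0) with GW501516 and rosiglitazone. All 6 were called in limma, with adjusted p of 0.00087, 1.6e-05, 5.6e-05, 1.5e-07, 1.6e-07 and 3.6e-09 in that order. WY14643 was at 0.01 on 1424155_at and 0.11 on 1425809_at, and neither was called. On the brightest probe set WY14643 minus GW501516 was -0.094 and WY14643 minus rosiglitazone was -0.114 (adjusted p = 0.010 and 0.00072), where these pairs called 3.03% and 6.12% of all genes. WY14643 thus lay above the other compounds in liver and below them in heart.

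**Figure D3:**
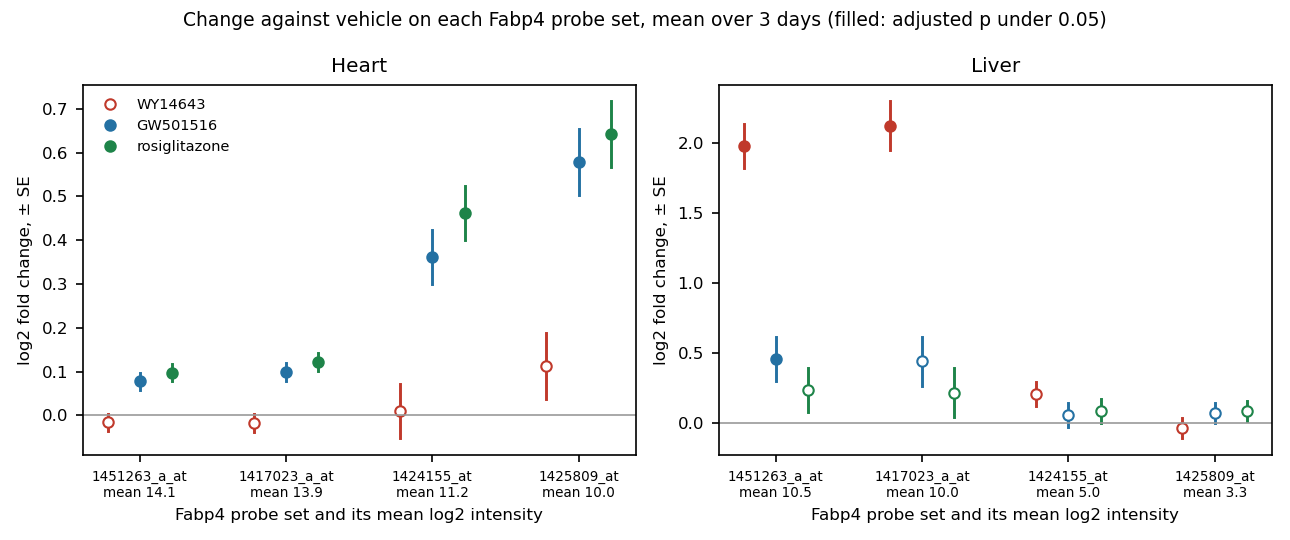
Log2 change from vehicle (mean over the 3 days, vertical lines ± SE, filled where called) on each of the 4 Fabp4 probe sets in heart and liver, ordered from the brightest at the left to the dimmest. In heart the change with GW501516 runs from 0.077 on the brightest probe set to 0.58 on the dimmest, and in liver the change with WY14643 is 1.97 and 2.12 on the bright pair and -0.036 on the dimmest.

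Adipocyte transcripts varied between hearts. Adipoq ran from 3.65 to 9.32 in vehicle hearts and reached 13.12 with GW501516 and 13.21 with rosiglitazone, each in the 1 array that stood apart (day 15 replicate 1 and day 4 replicate 1). The mean of the adipocyte markers was 5.602 to 7.86 with vehicle, 6.14 to 9.11 with WY14643, 5.87 to 10.75 with GW501516 and 5.72 to 11.74 with rosiglitazone. Of the 5 markers only Trarg1 was called, up by 0.85 with GW501516 and 0.60 with rosiglitazone, while Adipoq was at 0.59 and 0.48 without a call. Without those 2 arrays Fabp4 was 0.06 and 0.08 (limma adjusted p = 0.0055 and 0.00025), and with the adipocyte markers as a covariate it was also 0.06 and 0.08 (adjusted p = 0.019 and 0.00074). Across vehicle hearts Fabp4 and the adipocyte markers had r = -0.080 (rho = -0.118; permutation p = 0.68 and 0.55). Of 8 endothelial markers, the other cell type of heart known for Fabp4, Flt1 was called, up by 0.22 and 0.21 with these compounds, and the mean of the list was 10.84 to 11.42 with vehicle, 11.22 to 11.46 with GW501516 and 11.07 to 11.43 with rosiglitazone.

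In muscle and kidney Fabp4 moved with the adipocyte markers from mouse to mouse. Vehicle muscles ran from 12.03 to 13.26 in Fabp4 and from 6.28 to 11.16 in the mean of the adipocyte markers, with r = 0.939 (rho = 0.899; 0.926, 0.964 and 0.935 within days 4, 8 and 15; 0.932 without the 2 farthest arrays). Vehicle kidneys ran from 10.45 to 11.97 and from 3.40 to 6.42, with r = 0.849 (rho = 0.785; 0.920, 0.635 and 0.856 within days; 0.812 without the 2 farthest). Both had a permutation p of 1e-05, the smallest that 100000 permutations can give (2.75e-05 adjusted over 11 correlations). Fabp4 was not called in either tissue. Its changes with WY14643, GW501516 and rosiglitazone were 0.19, -0.06 and 0.17 in muscle and 0.10, 0.20 and 0.00 in kidney, and with the adipocyte markers as a covariate 0.01, 0.05 and 0.07 in muscle and 0.05, 0.11 and -0.01 in kidney. In muscle the mean of those markers was 6.60 to 11.57 with WY14643, 6.69 to 10.93 with GW501516 and 6.63 to 11.23 with rosiglitazone, and none of the 5 was called.

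Fabp1, the liver carrier and one of the most abundant hepatocyte transcripts, showed no called change in liver. Vehicle livers ran from 14.23 to 14.37 on day 4, 14.09 to 14.37 on day 8 and 14.13 to 14.32 on day 15. Livers given WY14643 ran from 14.26 to 14.31, 14.07 to 14.31 and 14.11 to 14.30, those given GW501516 from 14.24 to 14.28, 14.23 to 14.35 and 14.07 to 14.20, and those given rosiglitazone from 14.16 to 14.29, 14.17 to 14.33 and 14.12 to 14.17. All groups overlapped their vehicle mice. The changes were -0.021, -0.018 and -0.022 (SE 0.020 each; 95% intervals within -0.06 to 0.02; limma adjusted p = 0.60, 0.64 and 0.52). Fabp1 lay on average 0.46 below the highest value of any probe set on the liver arrays, and whether the array could register a further rise was not tested. Between days the vehicle livers fell by 0.09 from day 4 to day 8 and by 0.09 from day 4 to day 15 (adjusted p = 0.023 and 0.039, where 9.73% and 4.06% of all genes were called). Over the members 6 of 60 such vehicle differences between days were called, against 1.39% over all genes.

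In kidney Fabp1 rose with WY14643 and with GW501516. With WY14643 the values were 6.87, 7.44, 8.68, 7.13 and 6.28 on day 4, 9.66, 12.08, 9.08, 12.04 and 7.67 on day 8, and 9.15, 8.62, 8.08, 9.27 and 8.28 on day 15. Vehicle kidneys ran from 4.24 to 7.02 (median 5.05), from 3.96 to 7.93 (median 6.32) and from 3.29 to 9.01 (median 5.75). Every treated kidney was above its vehicle mean, yet the groups overlapped on each day. The rise was 2.73 ± 0.503 (1.72 to 3.73; limma adjusted p = 0.00022; 15 of 15 mice), and on single days it was 1.90, 3.77 and 2.52, called on day 8 (adjusted p = 0.016, where 0.506% of all genes were called). With GW501516 the values spread from 5.23 to 9.01 on day 4, 5.28 to 11.09 on day 8 and 6.11 to 11.74 on day 15. Fabp1 rose by 1.69 ± 0.503 (0.68 to 2.69; adjusted p = 0.028; 12 of 15 mice). With rosiglitazone, at 5.04 to 8.32, 4.75 to 9.64 and 5.68 to 8.44, the change was 0.90 (-0.11 to 1.90; adjusted p = 0.66; 9 of 15 mice). The differences between compounds were not called: WY14643 minus rosiglitazone was 1.83 (0.67 to 2.99; adjusted p = 0.092). The second probe set of Fabp1, 1417556_at, gave 2.52, 1.56 and 0.75 with the 3 compounds (adjusted p = 0.00015, 0.025 and 0.79). Without the kidney that stood apart, GW501516 gave 1.88 (adjusted p = 0.013). Leaving out day 8 gave 2.21 with WY14643 (adjusted p = 0.060) and 1.89 with GW501516 (adjusted p = 0.10).

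RNA carried over from liver was checked in kidney with Alb, the albumin gene, and 12 other hepatocyte markers (13 of 14 measured). None of the 13 was called in kidney, heart or muscle with any compound. Their mean in kidney was 5.13 to 6.65 with vehicle, 5.03 to 7.13 with WY14643, 4.95 to 6.79 with GW501516 and 5.22 to 7.55 with rosiglitazone. Fabp1 followed them across vehicle kidneys, with r = 0.671 (rho = 0.642; permutation p = 0.0006, 0.0013 adjusted; 0.367, 0.544 and 0.790 within days; 0.594 without the 2 farthest). In the 5 kidneys given WY14643 on day 8 Alb was 5.73, 6.48, 6.85, 9.81 and 7.24, in the order in which Fabp1 is listed above, against 5.88 to 8.90 (median 6.94) in all vehicle kidneys. The highest Fabp1 (12.08) was thus found beside an Alb of 6.48, and the next (12.04) beside 9.81. With GW501516 the kidneys at 11.09 and 11.74 had Alb of 6.41 and 7.01. Fabp1 minus Alb had a median of -1.28 with vehicle, 0.76 with WY14643, -0.31 with GW501516 and -0.92 with rosiglitazone. With the hepatocyte markers as a covariate the changes were 2.37, 1.48 and 0.45 (limma adjusted p = 0.00019, 0.023 and 0.94), and with Alb as a covariate 2.44, 1.42 and 0.47 (3.6e-05 and 0.021 for WY14643 and GW501516). In the kidneys with Alb at or under the vehicle median, WY14643 gave 3.55 (adjusted p = 0.032) from 2, 3 and 1 mice on the 3 days, and GW501516 gave 1.08 (adjusted p = 0.72).

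**Figure D4:**
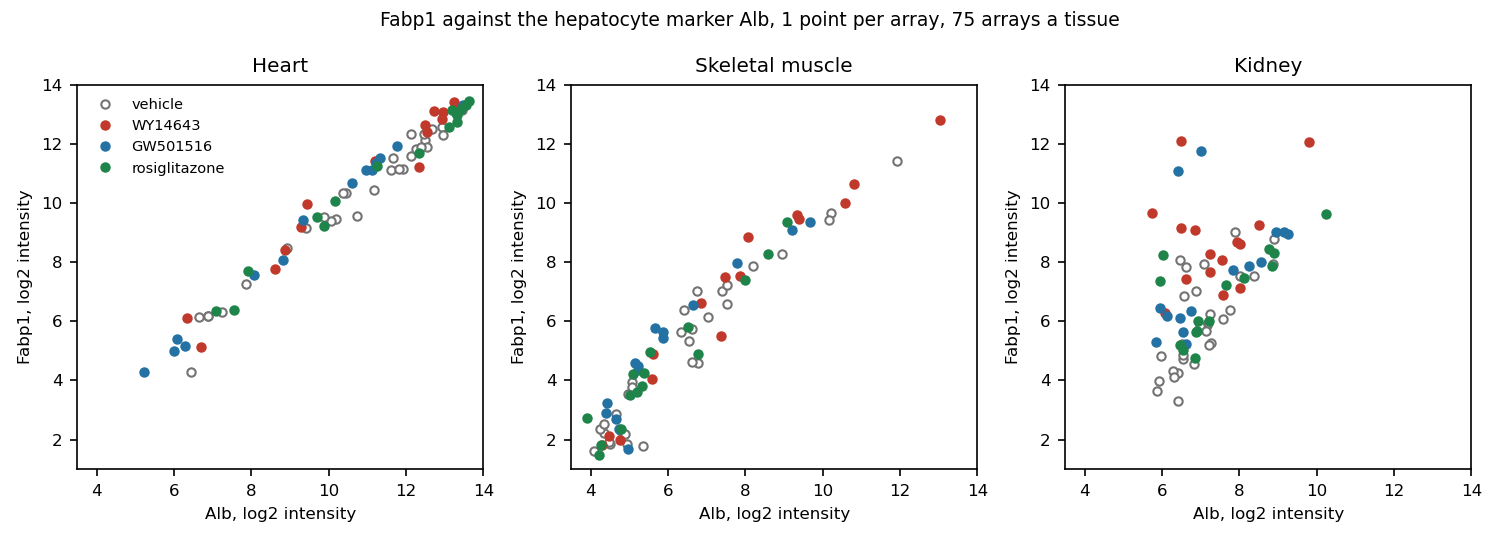
Log2 intensity of Fabp1 against that of Alb in each of 75 arrays of heart, skeletal muscle and kidney (open points vehicle, filled points compounds). In heart and muscle the compound arrays lie along one band with the vehicle arrays, and in kidney most arrays of WY14643 and a pair of arrays of GW501516 (11.09 and 11.74) lie above the vehicle arrays of like Alb.

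In heart and muscle Fabp1 followed the hepatocyte markers almost from array to array. Across vehicle hearts r was 0.979 (rho = 0.976; 0.968, 0.997 and 0.976 within days; 0.971 without the 2 farthest), and across vehicle muscles 0.939 (rho = 0.947; 0.954, 0.957 and 0.964 within days; 0.929 without the 2 farthest), each with a permutation p of 1e-05, the smallest possible, and 2.75e-05 adjusted. Alb ran from 6.45 to 13.46 in vehicle hearts and from 4.08 to 11.92 in vehicle muscles. Fabp1 itself ran from 4.28 to 13.14 in vehicle hearts and from 1.62 to 11.40 in vehicle muscles. The changes were 0.58, -0.82 and 0.82 in heart (SE 0.764) and 1.97, 0.15 and -0.36 in muscle (SE 0.784) with WY14643, GW501516 and rosiglitazone, with none called. With the hepatocyte markers as a covariate they were 0.13, 0.38 and 0.05 in heart and 0.14, 0.73 and 0.31 in muscle, again with none called. The mean of the markers was 5.66 to 11.46, 5.51 to 11.39, 5.36 to 11.001 and 5.78 to 11.54 in hearts of vehicle, WY14643, GW501516 and rosiglitazone mice, and 3.19 to 9.27, 3.08 to 10.93, 3.28 to 6.80 and 3.08 to 7.20 in muscles. On 1 day a call appeared in muscle: on day 4 of WY14643 Fabp1 was 9.60, 6.63, 12.80, 9.98 and 5.50 against 1.62 to 7.02 with vehicle, a change of 4.74 (limma adjusted p = 0.037, where 3.34% of all genes were called). In those 5 muscles Alb was 9.33, 6.86, 13.03, 10.57 and 7.38 in the same order, against 4.08 to 7.41 with vehicle, and leaving out single mice of either group ended the call in 6 cases, with values from 3.76 to 5.59.

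Fabp7, the brain type carrier, is represented by 1 probe set, and its transcript is known to cycle over the day in mouse brain. It differed between days in vehicle mice alone. Vehicle hearts ran from 5.53 to 6.94 (median 6.46) on day 4, from 6.74 to 7.99 (median 7.53) on day 8 and from 6.92 to 8.41 (median 7.20) on day 15. Day 8 and day 15 exceeded day 4 by 1.11 and 0.998 (limma adjusted p = 0.0058 and 0.034), where 0.786% and 0.39% of all genes were called. Vehicle kidneys ran from 7.01 to 7.74, 7.94 to 8.47 and 7.67 to 8.53, with differences from day 4 of 0.89 and 0.79 (adjusted p = 0.00011 and 0.0010), where 0.473% and 0.874% of all genes were called. In muscle the differences of 0.70 and 0.29 were not called, and the vehicle livers had medians of 8.42, 8.69 and 8.64. Arntl, the clock gene that encodes BMAL1, had vehicle means of 7.65, 9.45 and 8.98 on days 4, 8 and 15 in heart, 4.61, 5.75 and 5.42 in kidney, 5.67, 8.14 and 7.36 in liver and 6.28, 7.62 and 7.11 in muscle, lowest on day 4 in each tissue.

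In heart Fabp7 fell with GW501516 and rosiglitazone, from a dim level: its mean of 6.58 over all hearts lay under the 40th percentile of the genes there (7.39). With GW501516 the values were 5.83, 5.97, 6.54, 5.90 and 6.24 on day 4, 5.51, 5.74, 6.12, 6.20 and 5.99 on day 8, and 6.02, 6.51, 6.34, 6.32 and 5.31 on day 15. With rosiglitazone they were 8.20, 5.15, 5.87, 5.51 and 5.44, then 6.22, 6.32, 6.03, 5.999 and 5.99, then 6.08, 5.68, 5.96, 5.21 and 4.85. On days 8 and 15 every heart of both compounds lay below every vehicle heart, and on day 4 the groups overlapped. The changes were -1.03 ± 0.172 with GW501516 (limma adjusted p = 2.3e-05; 14 of 15 mice) and -1.17 ± 0.172 with rosiglitazone (adjusted p = 7.9e-07; 14 of 15 mice), and without the 2 hearts that stood apart -1.03 and -1.35. On day 8 they were -1.57 and -1.37 (adjusted p = 0.00046 and 0.0016, where 1.63% and 4.18% of all genes were called), and on day 15 -1.26 and -1.81 (0.016 and 5.7e-05, where 0.764% and 1.09% were called).

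With WY14643 heart Fabp7 was called on day 8 alone, and whether its response differed between day 4 and day 8 was not tested. The values were 7.69, 6.52, 6.87, 8.38 and 6.34 on day 4, 6.40, 6.71, 6.26, 6.29 and 5.51 on day 8, and 7.67, 6.74, 6.63, 8.01 and 6.502 on day 15. On day 8 all 5 lay below the vehicle range, by a change of -1.25 (limma adjusted p = 0.025, where 0.434% of all genes were called), while on day 4 the change was 0.79 (adjusted p = 0.23). The mean over days was -0.24 (-0.58 to 0.11; adjusted p = 0.59). WY14643 lay above GW501516 by 0.80 (0.40 to 1.19; adjusted p = 0.015) and above rosiglitazone by 0.93 (0.54 to 1.33; adjusted p = 0.0018). Arntl in the same 15 hearts was 9.08, 9.23, 9.06, 9.41 and 8.599 on day 4, 7.57, 7.44, 8.25, 7.84 and 7.70 on day 8, and 9.66, 8.07, 8.50, 9.27 and 9.56 on day 15. It thus lay above the vehicle hearts on day 4 (6.53 to 8.43) and below them on day 8 (8.85 to 10.54), and overlapped them on day 15 (7.96 to 9.78).

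**Figure D5:**
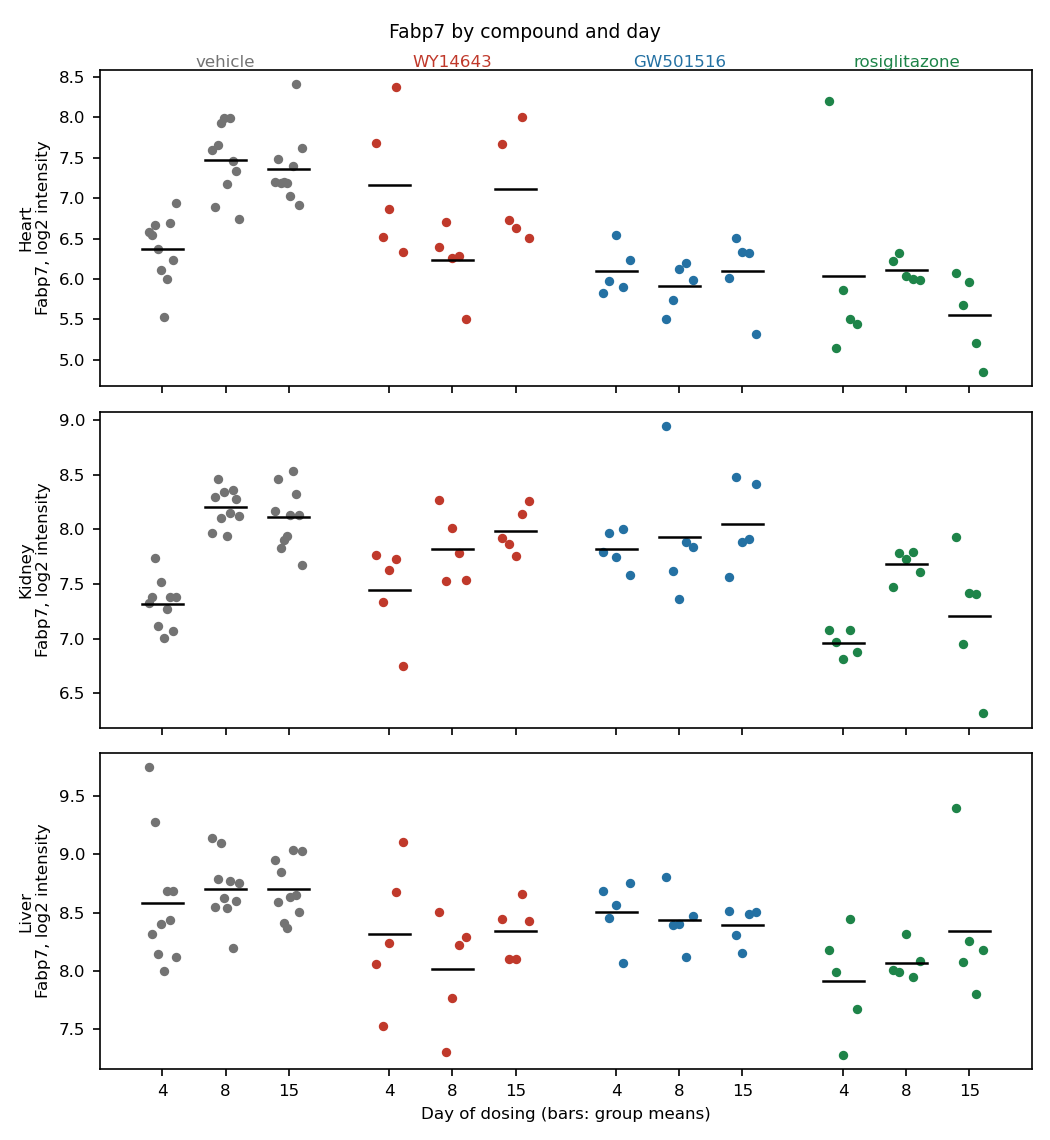
Log2 intensity of Fabp7 in each array of heart, kidney and liver by treatment and day of dosing (points are mice, bars are group means). Vehicle hearts and kidneys are lowest on day 4, and hearts given GW501516 or rosiglitazone reach at most 6.51 on days 8 and 15, below every vehicle heart of those days.

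In kidney Fabp7 fell with rosiglitazone alone among the 3 compounds tested against vehicle. The values were 7.08, 6.97, 6.82, 7.08 and 6.88 on day 4, 7.47, 7.79, 7.73, 7.79 and 7.61 on day 8, and 7.93, 6.95, 7.42, 7.41 and 6.32 on day 15. All 15 were below the vehicle mean of their day, and on day 8 none reached the vehicle range. The change was -0.59 ± 0.0988 (limma adjusted p = 6.4e-05), against -0.12 with WY14643 and 0.06 with GW501516 (adjusted p = 0.82 and 0.80). On day 15 it was -0.90 (adjusted p = 0.0029, where 0.132% of all genes were called). WY14643 exceeded rosiglitazone by 0.47 (0.24 to 0.70; adjusted p = 0.011) and GW501516 exceeded it by 0.65 (0.42 to 0.88; adjusted p = 0.00015; 0.57 without the kidney that stood apart), where 1.95% and 1.12% of all genes were called. Arntl, by contrast, fell in kidney with GW501516 (-0.65, adjusted p = 0.020) and was at -0.16 with rosiglitazone (adjusted p = 0.97).

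In liver Fabp7 fell with WY14643 and rosiglitazone. WY14643 gave 8.05, 7.53, 8.24, 8.68 and 9.10 on day 4, 8.51, 7.31, 7.77, 8.22 and 8.29 on day 8, and 8.44, 8.097, 8.1004, 8.66 and 8.43 on day 15. Rosiglitazone gave 8.18, 7.99, 7.28, 8.45 and 7.67, then 8.01, 7.99, 8.32, 7.95 and 8.09, then 9.40, 8.07, 8.26, 7.80 and 8.18. Vehicle livers ran from 8.00 to 9.75, 8.20 to 9.14 and 8.37 to 9.04, so the groups overlapped on every day. The changes were -0.44 ± 0.121 (limma adjusted p = 0.0091; 13 of 15 mice) and -0.55 ± 0.121 (adjusted p = 0.00045; 14 of 15 mice), and GW501516 gave -0.22 (-0.46 to 0.02; adjusted p = 0.26). On day 8 they were -0.69 and -0.64 (adjusted p = 0.033 for both, where rosiglitazone called 12.8% of all genes). Without day 8 WY14643 gave -0.31 (adjusted p = 0.19). GW501516 minus rosiglitazone was 0.34 (0.06 to 0.62; adjusted p = 0.19). In muscle, near the dim end of the array, the values of -0.08, -0.47 and -0.47 with the 3 compounds were not called (adjusted p = 0.89, 0.22 and 0.15).

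Clock genes moved in the same tissues, and their part in the changes of Fabp7 was examined by covariates alone. Of 17 clock genes 16 were measured. In heart 0 rose and 0 fell with WY14643, 8 rose and 2 fell with GW501516, and 7 rose and 3 fell with rosiglitazone. In liver the counts were 1 and 1, 8 and 4, and 8 and 4, in kidney 1 and 0, 4 and 4, and 4 and 2, and in muscle 0 and 0, 2 and 3, and 1 and 3. Beside them, the shares of all genes called were 1.44%, 4.17% and 7.51% in heart and 11.2%, 13.9% and 16.2% in liver. They were 1.74%, 6.79% and 1.52% in kidney and 0.104%, 0.857% and 1.65% in muscle. Arntl fell in heart by 1.33 with GW501516 and by 1.71 with rosiglitazone, and in liver by 1.70 and 1.52. Over vehicle hearts Fabp7 and Arntl had r = 0.387 (rho = 0.471; permutation p = 0.042 and 0.011, adjusted 0.066 and 0.017), with 0.941, 0.760 and -0.395 within days 4, 8 and 15, so the relation did not hold on day 15. Over vehicle muscles r was 0.550 (rho = 0.581; adjusted p = 0.0087 and 0.0035; 0.376, 0.900 and 0.402 within days), and the relation did not pass in liver (r = 0.227, rho = 0.343) or kidney (r = 0.257, rho = 0.314). Without the 2 farthest arrays r was 0.607 in heart, 0.606 in muscle, 0.237 in liver and 0.312 in kidney.

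With the first 2 principal components of the clock genes as covariates, heart Fabp7 was at -0.30 with GW501516 (limma adjusted p = 0.69) and at 0.055 with rosiglitazone (adjusted p = 0.95), liver Fabp7 at 0.18 with rosiglitazone (adjusted p = 0.89) and at -0.37 with WY14643 (adjusted p = 0.020), and kidney Fabp7 at -0.24 with rosiglitazone (adjusted p = 0.72). With Arntl alone as a covariate these 5 were -0.81 (adjusted p = 0.17), -0.88 (0.28), -0.48 (0.045), -0.43 (0.010) and -0.59 (0.00010). The clock genes differed between compound and vehicle mice, and the hour of collection is not given. These fits therefore do not separate the compound, the clock and the hour of collection. Schwann cell and nerve markers, the peripheral cells known for Fabp7 (5 of 7 measured), had means of 6.82 to 7.43 in vehicle hearts, 6.86 to 7.56 with WY14643, 6.91 to 7.39 with GW501516 and 6.75 to 8.59 with rosiglitazone. The medians of these means were 7.05, 7.03, 7.11 and 7.05 in that order. Of the 5 markers Ngfr, the low-affinity nerve growth factor receptor, fell by 0.20 and 0.18 in heart and by 0.37 and 0.43 in liver with GW501516 and rosiglitazone. Cdh19, a Schwann cell cadherin, rose with rosiglitazone by 0.70 in heart and 0.69 in muscle. Whether the rise of Cdh19 in heart holds without the rosiglitazone heart that stood apart was not tested.

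Fabp3, the heart type carrier, was not called in any tissue in the main fit. In heart the vehicle arrays ran from 14.69 to 14.75 and the compound arrays from 14.63 to 14.77, and the changes were -0.0014, 0.013 and -0.0048 (SE 0.0072). With quantile normalization the change with GW501516 was 0.020 (limma adjusted p = 0.021), against 0.40 as adjusted p without it. Fabp3 lay on average 0.28 below the highest value of any probe set on the heart arrays, and, as for Fabp1 in liver, room for a further rise was not tested. In kidney the changes were 0.0065, 0.023 and -0.012 (SE 0.047), and in liver, where Fabp3 was dim, -0.0052, -0.013 and -0.060 (SE 0.068). In muscle they were -0.087, 0.11 and -0.0016 (SE 0.056), and with GW501516, at 13.31 to 13.47 on day 4, 13.31 to 13.49 on day 8 and 13.23 to 13.50 on day 15 against 12.94 to 13.48 over all vehicle muscles, 13 of 15 mice were above the vehicle mean (limma adjusted p = 0.56). The 95% intervals of all its differences between compounds lay within -0.33 to 0.24.

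Fabp5, the epidermal type carrier that is known to deliver ligands to PPAR-delta, was not called either. The value nearest to a call was in kidney with GW501516, 0.26 (0.07 to 0.46; limma adjusted p = 0.089), where 1 mouse on day 8 stood at 11.41 and the other 4 at 9.63 to 9.82, and without that mouse, the kidney that stood apart, it was 0.15 (adjusted p = 0.26). Without day 8 replicate 4 or 5 it was 0.30 with a call (adjusted p = 0.048 and 0.044). In liver Fabp5 ran from 12.04 to 13.39 with vehicle, and the changes were -0.05, 0.10 and -0.04 (SE 0.078). In heart they were -0.03, 0.09 and 0.08 (SE 0.043). In muscle they were 0.34, -0.21 and 0.29 with an SE of 0.226, from vehicle values of 9.64 to 11.88. The intervals of its differences between compounds reached from -1.02 to 1.07, so differences of that size are not excluded by these data.

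The response of a member was compared between tissues within the same mice, for liver against heart, kidney and muscle and for heart against muscle. Of 60 such differences 7 were called, against 5.33% over all genes. For Fabp4 the change with WY14643 was larger in liver than in heart by 1.99, than in kidney by 1.88 and than in muscle by 1.79 (limma adjusted p = 8.9e-16, 3.0e-11 and 1.9e-10, where 6.52%, 4.69% and 3.52% of all genes were called). For Fabp7 the change in liver lay above that in heart by 0.82 with GW501516 and by 0.61 with rosiglitazone (adjusted p = 0.0022 and 0.023, where 10.2% and 12.5% were called). For Fabp1 the change in liver lay below that in kidney by 2.75 with WY14643 and by 1.70 with GW501516 (differences -2.75 and -1.70; adjusted p = 0.00013 and 0.024, where GW501516 called 8.18%). Responses on day 15 and day 4 were also compared: 0 of 60 differences were called in limma, against 0.101% over all genes, and 12 of the 60 had an unadjusted p under 0.05, against 7.19% over all genes.

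The other members of the lipid-binding family were read in the same 12 comparisons with vehicle, in which 5.59% of all genes were called. Of 11 relatives 9 were measured, and Fabp2, the intestinal type carrier, rose in liver by 0.31 with WY14643 and 0.30 with GW501516. Fabp12 fell in liver by 0.41 with rosiglitazone. Rbp7, a retinol carrier known in adipose tissue and endothelium, rose with rosiglitazone by 0.45 in heart and by 0.81 in muscle. Fabp6, Fabp9, Pmp2, Rbp2, Crabp1 and Crabp2 were not called with any compound in any tissue.

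Genes that take up, activate, move or release fatty acids, with the PPAR and RXR receptors, gave 26 measured of 27. In liver 11 rose and 1 fell with WY14643 (median 0.09 against -0.01 over all genes), 10 and 1 with GW501516 (0.08 against -0.01) and 6 and 4 with rosiglitazone (0.02 against -0.02). These compounds called 11.2%, 13.9% and 16.2% of all genes in liver. Cd36, the fatty acid translocase, rose by 2.46, 1.27 and 0.55. Slc27a1, a fatty acid transport protein, rose by 0.79 with WY14643 and 0.58 with GW501516, Lpl, lipoprotein lipase, by 0.52 with WY14643, and Pnpla2, the adipose triglyceride lipase, by 0.61 with GW501516 and 0.56 with rosiglitazone. Mgll, monoglyceride lipase, rose by 0.28 with rosiglitazone. Acsl6, an acyl-CoA synthetase, fell by 0.46 with WY14643 and by 0.54 with GW501516, and with rosiglitazone Acsl3 fell by 0.47, Gpihbp1 by 0.21 and Rxrg by 0.16.

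In heart none of the 26 was called with WY14643, 3 rose with GW501516 (Lipe, the hormone-sensitive lipase, by 0.45, Pparg by 0.30 and Mgll by 0.17), and 4 rose and 1 fell with rosiglitazone. Of all genes in heart, 1.44%, 4.17% and 7.51% were called with these compounds. With rosiglitazone Lipe rose by 0.41, Pparg by 0.39 and Gpihbp1, the capillary anchor of lipoprotein lipase, by 0.24, and Acsl3 fell by 0.26. In kidney 3, 4 and 1 rose with the 3 compounds, where 1.74%, 6.79% and 1.52% of all genes were called. Mgll rose by 0.77 with WY14643 and 0.87 with GW501516, Acsl3 by 0.63 and 0.74, Acsl4 by 0.21 with WY14643 and Lipe by 0.61 with GW501516, while with rosiglitazone Ppara rose by 0.33 and Acsl5 fell by 0.15. In muscle 1 was called, Gpihbp1 up by 0.52 with rosiglitazone, and the medians of the list were 0.20, 0.00 and 0.12 against -0.01, -0.00 and 0.00 over all genes. The shares of all genes called in muscle were 0.104%, 0.857% and 1.65%.

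The genes most like each member across the 75 arrays of a tissue, after the vehicle mean of the day was subtracted, are given as a description. Liver Fabp4 was nearest to Cd36 (Pearson r = 0.83), Ly6d (0.83) and Copz2 (0.82), and over the 30 vehicle livers alone these were 0.33, 0.05 and -0.24. Liver Fabp7 was nearest to Rgs2 (0.69), Lmo2 (0.68) and Chp2 (0.68), with 0.75, 0.54 and 0.61 over vehicle livers alone. Heart Fabp4 was nearest to Kdsr (0.78), Ywhab (0.74) and Tmed5 (0.71), with 0.63, 0.54 and 0.63 over vehicle hearts alone. Heart Fabp7 was nearest to Spon2 (0.85), Kdelr3 (0.80) and Vstm4 (0.78), with 0.53, 0.62 and 0.67 over vehicle hearts alone. Kidney Fabp1 was nearest to Apoa2 (0.53), a hepatocyte apolipoprotein and 1 of the 13 markers used above, then to Ehhadh (0.52), a peroxisomal oxidation enzyme, and Retsat (0.51). Over vehicle kidneys alone its r with Apoa2, Ehhadh and Retsat was 0.74, 0.19 and -0.16. Kidney Fabp7 was nearest to Ddc (0.67), Tbxas1 (0.64) and Fbxo21 (0.63), with 0.20, 0.28 and 0.50 over vehicle kidneys alone. The arrays share their groups and their vehicle means, so no p is given.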

How the data were processed

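The deposited table holds log2 intensities that the authors made with RMA in Partek, per the submitters' processing notes; versions and the grouping of arrays in RMA were not stated. Per the labels, total RNA came from Qiagen miRNeasy columns (DNase I treated), and NuGEN kits (WT Ovation V2, Encore Biotin) made the labelled cDNA. Of 45101 probe sets, 34945 named 1 gene, and the probe set with the highest mean stood for each of 18193 genes. Arrays of different tissues with 1 mouse number were treated as 1 animal: tissues of 1 animal correlated in their deviations from the group mean (median 0.0964 to 0.168, other animals -0.0309 to -0.0132).

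Each tissue was fitted by itself in limma 3.58.1 (R 4.3.3; lmFit, eBayes with trend) with 12 group means and 63 residual degrees of freedom, and two-sided p-values were adjusted by Benjamini-Hochberg over all genes within a comparison. Correlations used deviations from day means with permutations within days. Named were the 5 members, Alb and Adipoq, the marker lists, called members of the relatives and partners lists (up to 3 per direction), and the 3 nearest genes; markers called in a list and Arntl were named after their values were seen. The members, lists and tests were chosen with earlier results of these data known. Replicate numbers were not used as pairs in the main fit. Of 60 same-numbered sets, 8 had a mean r over 0.1, and the median was 0.0043 (-0.13 to 0.27). The highest were in muscle, at 0.16, 0.27 and 0.24 for replicates 1, 3 and 4 of day 4. On day 15 muscle replicates 1 and 5 had 0.26 and 0.27, and replicates 2, 3 and 4 had -0.10, -0.12 and -0.13. The cause was not tested. The fit was tested on simulated data: of 50 genes changed 1.5-fold, 94% were recovered in liver and 88% in muscle for WY14643 against vehicle among 18193 genes. Those shares are for the mean over days, and for day 8 alone they were 76% and 66%. The simulated noise was normal and independent between arrays and genes, without outlying arrays or carried-over RNA, so recovery in the real arrays can be lower. Precision is limited by array number, 5 per compound and 10 per vehicle group.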

Additional observations from a re-analysis of the deposited data

Results flagged for a closer look

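In 240 groups of a gene, tissue, treatment and day, 18 arrays lay apart from their group by Dixon's criterion, which chance gives in about 5% of groups. In heart, Fabp1 was 6.29 in vehicle day 15 replicate 3 (others 10.3 to 13.1) and 5.39 in GW501516 day 15 replicate 3 (others 11.1 to 13.3), and Alb in these arrays was 7.23 and 6.08. Heart Fabp3 was 14.75 in WY14643 day 8 replicate 2, 14.65 in WY14643 day 15 replicate 5, 14.76 in GW501516 day 15 replicate 3 and 14.63 in rosiglitazone day 4 replicate 1, all within 0.1 of their groups. Muscle Fabp3 was 12.76 in WY14643 day 15 replicate 2 (others 13.2 to 13.4; Adipoq 12.6) and 12.87 in rosiglitazone day 8 replicate 5 (others 13.3 to 13.4; Adipoq 8.52).

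Heart Fabp4 was 14.15 in vehicle day 8 replicate 7 and 13.94 in WY14643 day 8 replicate 2, and kidney Fabp4 was 10.49 in rosiglitazone day 8 replicate 4, where Adipoq was 2.78. Fabp5 was 12.48 in heart of WY14643 day 4 replicate 2 (others 12.8 to 13.0) and 11.41 in kidney of GW501516 day 8 replicate 1 (others 9.63 to 9.82). Fabp7 was 9.40 in liver of rosiglitazone day 15 replicate 1, 8.41 in heart of vehicle day 15 replicate 8, 8.20 in heart of rosiglitazone day 4 replicate 1, where Adipoq was 13.2, 2.27 in muscle of GW501516 day 15 replicate 5 and 5.34 in muscle of rosiglitazone day 4 replicate 5.

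Responses differed between tissues of the same mice in 7 of 60 tests in limma. For Fabp4 with WY14643 the difference of liver from heart was 1.99, from kidney 1.88 and from muscle 1.79. For Fabp7 the difference of liver from heart was 0.82 with GW501516 and 0.61 with rosiglitazone. For Fabp1 the difference of liver from kidney was -2.75 with WY14643 and -1.70 with GW501516.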

How the results depend on the processing

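Alternatives for the mean over days were quantile normalization, median centring, no intensity trend, array weights, dim genes left out, the mean of all probe sets, the replicate number as a block, day 8 left out and each mouse left out. Chosen after seeing the data were single probe sets, Alb or Arntl as a covariate, arrays with low Alb, and the fit without the 3 arrays that stood apart. The replicate block changed no other call of a member than those given here, and replicate numbers share no animal across groups.

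The number of the 5 members called in liver with GW501516, 1 in the report, was 0 with the replicate block, with the mean of all probe sets, without day 8 and without the arrays that stood apart, and 0 to 1 with single mice left out. Without day 8 it was 1 in place of 2 in liver with WY14643 and 0 in place of 1 in kidney with WY14643 and with GW501516. In heart it was 1 in place of 2 with GW501516 under the block, and 1 in place of 2 with GW501516 and with rosiglitazone when dim genes, Fabp7 among them, were left out. In kidney with GW501516 the block gave 0, and single mice left out gave 0 to 2, and in muscle with rosiglitazone 0 to 1. Liver Fabp4 with GW501516 was 0.48 under the block (limma adjusted p = 0.084), 0.38 without day 8 and 0.33 to 0.51 with single mice left out, the call ending in 5 cases. Kidney Fabp1 with GW501516 was 1.49 under the block (adjusted p = 0.19) and 1.39 to 1.88 with single mice left out, ending in 4. Heart Fabp4 with GW501516 was 0.08 under the block (adjusted p = 0.065). Muscle Fabp7 with rosiglitazone was -0.62 without day 4 replicate 5 (adjusted p = 0.010). Heart Fabp3 with GW501516 was 0.020 with quantile normalization, with a call. Kidney Fabp1, WY14643 minus rosiglitazone, was 1.99 with array weights (adjusted p = 0.028). Among the 11 called changes, 3 values changed sign: Fabp7 with rosiglitazone and the clock components, to 0.18 in liver and 0.055 in heart, and liver Fabp4 with WY14643 on its dimmest probe set (1425809_at), to -0.036. Among the 49 changes that were not called, 25 took the other sign under at least 1 alternative other than leaving out an array, and 13 when 1 array was left out. The cause was not tested.

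Counts over all genes moved more. Without day 8 they were 1344 and 1823 in liver (2532 and 2946 in the report's fit, GW501516 and rosiglitazone), 202 and 399 in heart (759 and 1367), 175, 321 and 29 in kidney (316, 1236 and 276, with WY14643 first) and 32, 26 and 16 in muscle (19, 156 and 301). The replicate block gave 161, 448 and 892 in heart (262 with WY14643), 300 and 168 in kidney with GW501516 and rosiglitazone, and 52 and 541 in muscle with WY14643 and rosiglitazone. Array weights gave 680, 1267 and 2070 in heart, 634 and 737 in kidney with WY14643 and rosiglitazone, and 34, 458 and 643 in muscle, and heart with WY14643 gave 472 without the arrays that stood apart. With single mice left out the counts ran from 113 to 455 in heart with WY14643, from 222 to 619 and 203 to 519 in kidney with WY14643 and rosiglitazone, and from 10 to 81 in muscle with WY14643. Whether brightness limits Fabp1 in liver and Fabp3 or Fabp4 in heart was not tested. Fabp7 in heart and muscle and Fabp3 in liver had means under the 40th percentile of genes.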
